A study of Mus musculus with 4 samples.

Results

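The genes described here encode the cytotoxic granule of T cells (Tc): the granzymes Gzma, Gzmb, Gzmk and Gzmm, the pore former perforin (Prf1), and the granule proteins Nkg7, Srgn and Ctla2a. They were chosen by symbol, as 8 of the 32285 genes in the count matrices, and all 8 had UMIs in each of the 4 libraries. Spleen Tc were profiled by droplet 3′ single-cell RNA-seq in 4 mice, with 1 library per mouse. All recipients were lethally irradiated mice that carried WEHI-3B AML cells, a murine myelomonocytic leukemia line, and received allogeneic donor BM followed by 200000 donor Tc on day 2, and spleens were taken on day 23. The donors of 2 mice were Havcr2fl/fl, and those of the other 2 were Havcr2fl/fl;E8icre/+, in which a cre driven by the E8i enhancer of Cd8a is meant to delete Havcr2, the gene of TIM-3, in CD8+ cells. The libraries are called E8icre 1, E8icre 2, floxed 1 and floxed 2, and values of the 4 libraries are always given in this order.

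Cytotoxic Tc store granzymes and perforin in secretory lysosomes, bound to the proteoglycan core protein serglycin, which Srgn encodes. Upon contact with a target cell the granules are released, perforin opens the membrane and the granzymes enter, where granzyme B cleaves after aspartate and activates caspases, while granzyme A and granzyme K are tryptase-like and granzyme M cleaves after methionine or leucine. Nkg7 is a membrane protein of the granule needed for efficient degranulation, and Ctla2a is a cysteine protease inhibitor homologous to cathepsin propeptides. In chronic stimulation, CD8+ Tc divide into precursor exhausted cells that carry Tcf7, which encodes TCF-1, and effector-like or terminally exhausted descendants, and granule genes are commonly used to tell them apart.

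On GRCm38 (GENCODE M21), Gzma lies on the minus strand of chromosome 13 from 113093825 to 113100981, and Gzmk lies on the same strand from 113171608 to 113225908, with 70626 bases between them. Gzmb lies on the minus strand of chromosome 14 from 56258838 to 56262260, and Gzmm (79689020 to 79695261) and Prf1 (61297833 to 61304680) lie on the plus strand of chromosome 10. Nkg7 is on the plus strand of chromosome 7 from 43437073 to 43438249, Srgn on the minus strand of chromosome 10 from 62493833 to 62527451, and Ctla2a on the minus strand of chromosome 13 from 60934155 to 60936625. The near-identical Ctla2b lies 36707 bases from Ctla2a, so reads of this pair may be split between them and the Ctla2a values are uncertain to that extent. The 250 bases before the gene start are shown for Gzma, Gzmb, Gzmk and Prf1, since the results below turn on how these genes differ between Tc states. The sequences are from RefSeq (GRCm38.p6), matched by symbol for 8 of 8 genes, and are written 5′ to 3′ on the strand of the gene. Their gene starts differ from the GENCODE positions above for some genes, most for Gzmk. Capitals mark TGTGGT (the core bound by RUNX factors), TCACAC (a T-box core, as for EOMES and T-bet) and TGANTCA (AP-1), searched on both strands.
Gzma, chr13:113100982-113101231, minus strand: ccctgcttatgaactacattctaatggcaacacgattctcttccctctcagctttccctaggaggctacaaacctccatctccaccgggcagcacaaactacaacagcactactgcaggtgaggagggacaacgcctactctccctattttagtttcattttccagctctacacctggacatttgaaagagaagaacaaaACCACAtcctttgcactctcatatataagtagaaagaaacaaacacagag
Gzmb, chr14:56262335-56262584, minus strand: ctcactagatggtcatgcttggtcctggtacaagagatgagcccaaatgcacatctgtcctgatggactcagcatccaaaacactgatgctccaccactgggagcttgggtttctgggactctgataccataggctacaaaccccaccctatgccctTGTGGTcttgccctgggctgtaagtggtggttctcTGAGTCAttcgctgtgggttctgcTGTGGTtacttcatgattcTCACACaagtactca
Gzmk, chr13:113180966-113181215, minus strand: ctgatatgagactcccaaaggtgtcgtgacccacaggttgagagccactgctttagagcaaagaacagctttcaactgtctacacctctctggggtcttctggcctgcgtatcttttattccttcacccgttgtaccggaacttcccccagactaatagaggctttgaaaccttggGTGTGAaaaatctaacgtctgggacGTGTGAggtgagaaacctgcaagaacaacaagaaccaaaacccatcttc
Prf1, chr10:61297586-61297835, plus strand: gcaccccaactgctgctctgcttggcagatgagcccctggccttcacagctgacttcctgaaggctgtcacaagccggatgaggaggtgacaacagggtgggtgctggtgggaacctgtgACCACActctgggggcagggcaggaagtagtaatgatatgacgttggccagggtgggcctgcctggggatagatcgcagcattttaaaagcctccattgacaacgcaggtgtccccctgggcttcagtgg

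The Gzma window held a RUNX match 50 bases before the start, and that of Prf1 held a RUNX match 130 bases before it. The Gzmb window held RUNX matches 93 and 34 bases before the start, a T-box match at 15 and an AP-1 match at 58. The Gzmk window held no RUNX match and T-box matches at 74 and 49. It lies inside the GENCODE gene of Gzmk, which spans 113171608 to 113225908. Of the others, Gzmm had a RUNX match at 247, Nkg7 a RUNX match at 83 and a T-box match at 12, Ctla2a an AP-1 match at 129, and Srgn none of these. Among 32851 mouse promoters of this length, 14% held the RUNX letters, 12.3% the T-box letters and 6.75% the AP-1 letters, so that matches of these short motifs are common. A match is a description of the sequence and no evidence of binding.

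The libraries held 1511 to 6737 barcodes and 17693991 to 55045903 gene UMIs, and 1198 to 4198 cells were used after the filters. Pairs of libraries shared 1 to 6 cell barcodes. The labelled cell type did not hold for all cells: 6631 cells were T cells by cluster (CD3 genes), and the 4563 other cells were erythroid-like (1281), of several smaller myeloid, progenitor and B cell classes, or in 3 clusters that stayed unnamed, the largest with 1387 cells, and they carried more UMIs (median 12073 to 18772 per cell) than CD8+ Tc (3013 to 6963). T cells with Cd8a or Cd8b1 and no Cd4 UMI were taken as CD8+ Tc (1514, 932, 482 and 1252 cells), and those with Cd4 and neither CD8 gene as CD4+ Tc (562, 615, 241 and 306 cells). Cd3g was found in 98.4% to 98.8% of CD8+ Tc. The targeted gene was checked first: Havcr2 was at 61.8, 7.71, 54.8 and 116 UMIs per 1e6 UMIs of the summed cells (CPM) in CD8+ Tc. E8icre 2 was low and E8icre 1 was within the range of the floxed libraries, so this level does not set E8icre 1 apart from them. Within a library, the ratio of Havcr2 in CD8+ over CD4+ Tc was 1.10, 0.270, 3.26 and 2.41. Which exons are floxed is not given in the sources used here. Where the 3′ tag lies against the deleted part was not tested. The libraries are therefore named by their labels only, and fewer cells of a state cannot be told apart from less RNA per cell in values summed over a library.

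The first comparison asked which granule genes separate CD8+ from CD4+ Tc within the same mouse. UMIs were summed per library and class, and tested with edgeR's quasi-likelihood test with library as a block. All 7 members that could be tested passed at an adjusted p under 0.05, 6 higher and 1 lower in CD8+ Tc, against 24.8% of all genes tested. Gzmm, with 17, 58, 16 and 23 UMIs in CD8+ Tc, was left out by the filter on low counts. Here and in later comparisons within libraries, overlap of values is a description of single genes. The share of all genes without overlap was not counted.

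Gzmb was at 514, 405, 313 and 679 CPM in CD8+ Tc and at 141, 107, 108 and 152 CPM in CD4+ Tc. The classes did not overlap, and the ratio within a library was 2.91 to 4.48 (log2 fold change 1.93 ± 0.08 SE, adjusted p = 8.6e-09). Gzma reached 1415, 791, 439 and 2824 CPM in CD8+ Tc and 56.0, 125, 8.74 and 565 CPM in CD4+ Tc. It was higher in CD8+ Tc of each library, although floxed 2 CD4+ Tc exceeded floxed 1 CD8+ Tc, and the ratio ran from 5.0 to 50.2 (3.48 ± 0.36, adjusted p = 1.2e-05). Prf1 was at 319, 158, 245 and 322 CPM against 49.8, 20.1, 17.5 and 86.6 CPM (2.78 ± 0.18, adjusted p = 2.0e-07). Its classes did not overlap. Nkg7 was at 3658, 3212, 3348 and 4657 CPM against 1614, 1432, 1565 and 1682 CPM, again without overlap (1.28 ± 0.05, adjusted p = 4.9e-09).

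Gzmk separated the classes least among the granzymes tested. It was at 132, 132, 123 and 227 CPM in CD8+ Tc and 131, 83.4, 86.7 and 43.3 CPM in CD4+ Tc, and in E8icre 1 the ratio was 1.01. Its log2 fold change of 0.77 ± 0.22 (adjusted p = 0.023) was 0.78 without E8icre 2 (adjusted p = 0.0539) and 0.45 without floxed 2 (adjusted p = 0.0211), and DESeq2 did not call it (adjusted p = 0.226). Srgn went the other way, with 621, 694, 764 and 844 CPM in CD8+ Tc and 1287, 1010, 1196 and 1367 CPM in CD4+ Tc (−0.68 ± 0.07, adjusted p = 1.4e-05). Serglycin is made by many hematopoietic cells, and its classes did not overlap here. Ctla2a was at 193, 258, 287 and 299 CPM against 262, 152, 168 and 174 CPM, lower in CD8+ Tc of E8icre 1 and higher in those of the other libraries (0.50 ± 0.16, adjusted p = 0.041). Its adjusted p was 0.182 without E8icre 2, 0.154 without floxed 1 and 0.179 without floxed 2, and its fold change was 0.82 without E8icre 1 (adjusted p = 1.35e-05). The adjusted p was 0.0691 with a stricter cell filter and 0.284 in DESeq2.

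For the share of cells with a UMI, each cell was thinned to 2000 UMIs and shallower cells were left out. By this measure 26%, 13.9%, 12.0% and 39.1% of CD8+ Tc held Gzma (31.4%, 18.7%, 16.8% and 42.9% before thinning), against 1.28% to 8.33% of CD4+ Tc (2.49% to 9.48%) and 0.282% to 0.522% of the cells that were not T cells (1.49% to 2.81%). Gzmb was held by 47.3%, 32.1%, 29.3% and 52.5% of CD8+ Tc (63.0%, 45.4%, 49.2% and 62.9% before thinning), 9.56% to 14% of CD4+ Tc (13.3% to 19.2%) and 0.466% to 1.57% of other cells (1.78% to 5.46%). Before thinning a Gzmb UMI was thus found in most CD8+ Tc of E8icre 1 and floxed 2, and a Gzma UMI in 16.8% to 42.9% of CD8+ Tc. In thinned cells both granzymes were found most often in floxed 2 and next most often in E8icre 1. Gzmk was held by 17.6% to 29.0% of CD8+ Tc (35.9% to 41.0%) and 5.16% to 14.7% of CD4+ Tc (6.54% to 23.0%). Nkg7 was near saturation, with 95.7% to 99.1% of CD8+ Tc (98.6% to 99.3% before thinning) and 62.8% to 69.0% of CD4+ Tc (71.9% to 78.0%). Gzmm was rare, in 0.451% to 1.19% of CD8+ Tc (1.06% to 2.91%) and 0 to 0.494% of CD4+ Tc (0.327% to 1.24%).

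Other genes of granule processing, release and protection were read from a list of 27, of which 24 were tested. Of these, 9 were higher and 1 was lower in CD8+ Tc, where 24.8% of all genes tested were called. The median log2 difference of the list was 0.08, against 0.0018 for all genes in this comparison. Over all within-library comparisons the median for all genes ran from −0.046 to 0.012. Ctsc, the cathepsin that activates progranzymes, was higher by 1.04 ± 0.07 on the log2 scale, the death ligand Fasl by 1.36 ± 0.10, the granule tethering gene Sytl2 by 1.00 ± 0.09 and Ctsw, a cathepsin of cytotoxic cells, by 0.74 ± 0.07. Of 7 relatives (Gzmc to Gzmg, Gzmn and Ctla2b), Ctla2b alone had enough UMIs to be tested, and it did not pass.

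CD8+ Tc were then divided into 10 clusters with the granule genes left out of the clustering, and named only where fixed markers allowed. Levels by cluster are a description with no test, since all genes of a cell follow its cluster. The plot of levels by cluster shows all 8 genes.

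**Figure D1:**
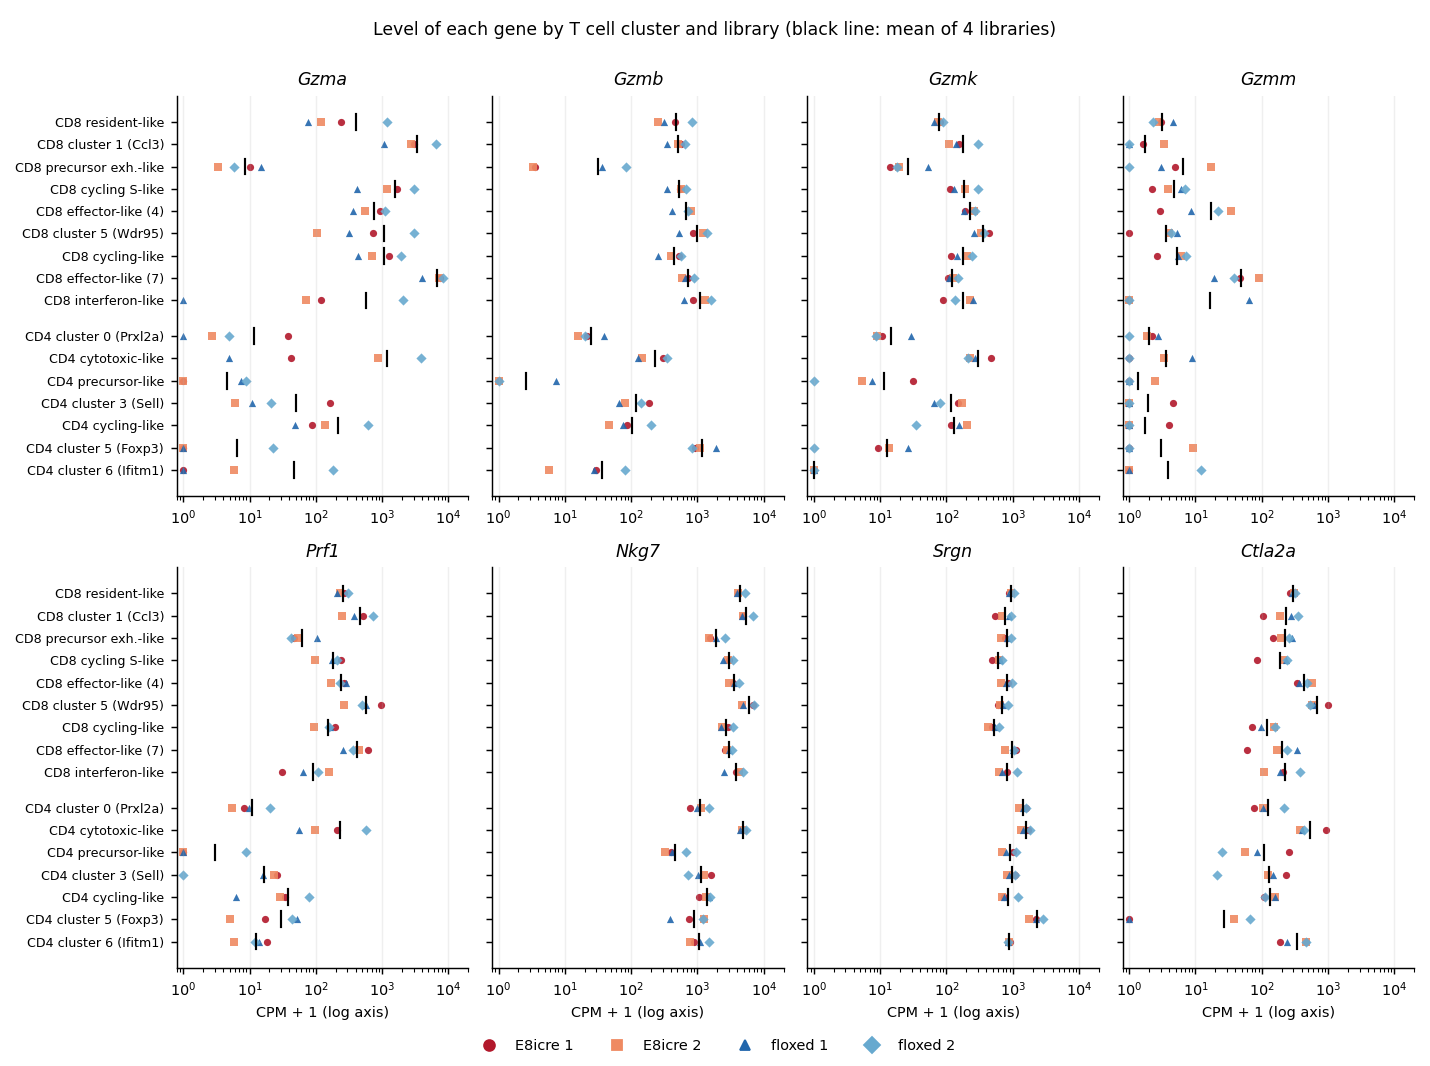
Level of each gene, as CPM + 1 on a log axis, in each CD8+ and CD4+ Tc cluster (rows; a cluster of 14 CD8+ Tc with erythroid RNA is not drawn), with 1 point per library and a black line at the mean of 4 libraries. Gzma spans the widest range in CD8+ Tc, from a mean of 7.51 CPM in precursor exhausted-like cells to 6775 CPM in effector-like cluster 7, and Gzmb is high in the Foxp3-led CD4 cluster (1187 CPM).

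Gzma was highest in cluster 7, the smaller of 2 short-term effector-like clusters (87 cells, 7 of 7 markers, among them Klrg1, Cx3cr1, Zeb2 and S1pr5). It reached 7490, 7183, 4019 and 8407 CPM there (6775 ± 1910, SD over 4 libraries), and 85.4% ± 15.1 of thinned cells held it. Clustered without integration, the matched cluster was at 1322 CPM and was no longer the highest in Gzma. The short-term effector-like cluster of that clustering was larger, with 562 cells, so the values are from unlike sets of cells. Next came cluster 1, led by Ccl3, Glp1r and Ccl4, in which 8 of 9 exhaustion markers were raised but which could not be named by the rule since chemokine genes of effector cells led it (747 cells). Gzma was at 3028, 2708, 1069 and 6464 CPM there (3317 ± 2267), overlapping the range of cluster 7. Precursor exhausted-like cells (cluster 2, 557 cells, 6 of 6 markers) were at 9.04, 2.31, 13.9 and 4.77 CPM (7.51 ± 5.11), below clusters 0, 1 and 3 to 7 in each library. For comparison, the cells that were not T cells held 2.55, 2.72, 8.0 and 3.43 CPM of Gzma. By CPM, precursor exhausted-like cells of E8icre 2 did not exceed that level. The other cells were deeper, with median UMIs of 12073 to 18772 per cell against 3046.5 to 6503.5, and the levels were not matched for depth. Whether Gzma in precursor exhausted-like cells was above background in any library was not tested.

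Between these ends lay the resident-like cells of cluster 0 (1091 cells; 3 of 6 markers, Itga1, Cxcr6 and Rgs1, but not Itgae, Cd69 or Rgs2), with 237, 121, 74.5 and 1184 CPM of Gzma. The other short-term effector-like cluster, number 4 (418 cells; 4 of 7 markers, Cx3cr1, S1pr1, Klf2 and Klf3, but not Klrg1, Zeb2 or S1pr5), was at 937, 556, 362 and 1107 CPM. Cycling S-like cells were at 1702, 1182, 423 and 3017 CPM, and cluster 5, led by Wdr95, Rhoq, Tcrg-C1 and Ccl5, at 727, 105, 313 and 3074 CPM. Floxed 2 was the highest and floxed 1 among the lowest 2 libraries in each of these 4 clusters, so that neighbours in the order of clusters overlapped over libraries. In cluster 7 the summed level of 7 NK cell markers was 216 to 678 CPM, against 51.5 to 113 CPM in all CD8+ Tc. Of it, 73.0% was Klre1, and Ncr1, Klra8 and Klra4 were at 0. The part of these cells in the Gzma level was not tested.

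Gzmb followed another order. Its means were highest in the 38 interferon-stimulated-like cells (856, 1296, 622 and 1574 CPM; 1087 ± 428) and in cluster 5 (861, 1216, 532 and 1374 CPM; 996 ± 376), where 70.7% ± 13.0 of thinned cells held it. Cluster 7 was at 728, 581, 649 and 897 CPM, cluster 4 at 717, 804, 407 and 719 CPM and cluster 1 at 559, 510, 341 and 652 CPM (515 ± 130). These ranges overlapped, and resident-like cells (456, 257, 317 and 838 CPM) lay among them. Gzmb was therefore high in all of clusters 0, 1 and 3 to 8, and it differed from them in the precursor exhausted-like cells, where it was at 2.58, 2.31, 35.8 and 83.5 CPM. The deeper cells that were not T cells held 6.24, 12.9, 30.5 and 1.73 CPM of Gzmb, again not matched for depth. Part of this came from stem or progenitor cells, of which values are given below, so this level need not be background.

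Gzmk was led by cluster 5, with 436, 329, 258 and 372 CPM (349 ± 75.1) and 44.7% ± 7.29 of thinned cells, followed by cluster 4 with 188, 264, 184 and 268 CPM (226 ± 46.1). In each library cluster 5 was above cluster 4. The Gzma-richest cluster 7 was lower in Gzmk, at 104, 125, 108 and 147 CPM (121 ± 19.4). Resident-like cells were at 79.9, 73.7, 63.9 and 87.0 CPM (76.1 ± 9.82). The 3 levels of clusters 4, 7 and 0 did not overlap over libraries. Cluster 7 held only 86514, 87845, 55491 and 54597 UMIs of all genes, however. Its Gzmk levels thus rest on few UMIs, and its place above resident-like cells is uncertain. Precursor exhausted-like cells held 12.9, 18.4, 51.8 and 16.7 CPM of Gzmk, and other cells 0.68, 0.53, 5.74 and 0.20 CPM.

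Prf1 was at 947, 269, 571 and 488 CPM in cluster 5 (569 ± 283), at 514, 251, 379 and 723 CPM in cluster 1 (467 ± 202) and at 613, 444, 252 and 366 CPM in cluster 7 (419 ± 151). These 3 could not be ordered over libraries, and without E8icre 1 the mean of cluster 5 fell to 443 CPM and was no longer the highest. Precursor exhausted-like cells were at 46.5, 53.8, 102 and 40.6 CPM (60.6 mean). Nkg7 was at 6850, 4763, 4898 and 7162 CPM in cluster 5 and 4881, 4809, 4694 and 6879 CPM in cluster 1, and at 1566, 1510, 1928 and 2594 CPM in precursor exhausted-like cells. Cluster 5 had its highest mean, but not without integration (5159 CPM in the matched cluster). In each library the level of the precursor exhausted-like cells was over that in all 10 classes of cells that were not T cells, of which values are given below.

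Gzmm was the sparsest of the 8. It was highest in cluster 7, at 46.2, 91.1, 18.0 and 36.6 CPM (48.0 ± 31.0), which rests on 15 UMIs in 13 of 87 cells, and next in cluster 4 with 1.96, 33.2, 7.57 and 21 CPM. In cluster 1 its mean was 0.724 CPM. Both short-term effector-like clusters thus led, on few UMIs, and without integration the cluster matched to cluster 7 was at 20.1 CPM and no longer the highest. Srgn varied least, with means from 513 ± 78.7 CPM in cycling-like cells to 983 ± 158 CPM in cluster 7, which was no longer the highest without E8icre 1 (933 CPM) or without integration (820 CPM), and precursor exhausted-like cells (804 CPM) were not low. Ctla2a was highest in cluster 5 (997, 574, 610 and 525 CPM; 676 ± 217), then in cluster 4 (333, 567, 369 and 475 CPM), and lowest among the larger clusters in cycling-like cells (119 CPM).

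Counts within cells showed how unevenly each gene was spread. Of thinned CD8+ Tc with Gzma, 37.7%, 43.8%, 30.4% and 47.6% held 10 or more of its UMIs, while Gzma was at 0 in 77.3% ± 12.5 of cells. The 10% of CD8+ Tc richest in Gzma carried 80.7%, 96.0%, 97.2% and 68.8% of all Gzma UMIs, and the richest cell of a library had 171 to 272. The Gzma UMIs were thus most concentrated in E8icre 2 and floxed 1 and least in floxed 2, where 39.1% of thinned cells held it. Gzmb was at 0 in 59.7% ± 11.4 of thinned cells, and 1.54% ± 0.826 of those with it held 10 or more UMIs. For Gzmb the richest 10% of cells carried 44.7% to 59.6% of its UMIs, and the richest cells had 42 to 71. No thinned cell held 10 Gzmk UMIs. For Prf1 the share with 10 or more was 0.0958% of the cells with a UMI. These are 3′ tag counts, whose capture may differ between genes, so the shapes and not the levels are set side by side.

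**Figure D2:**
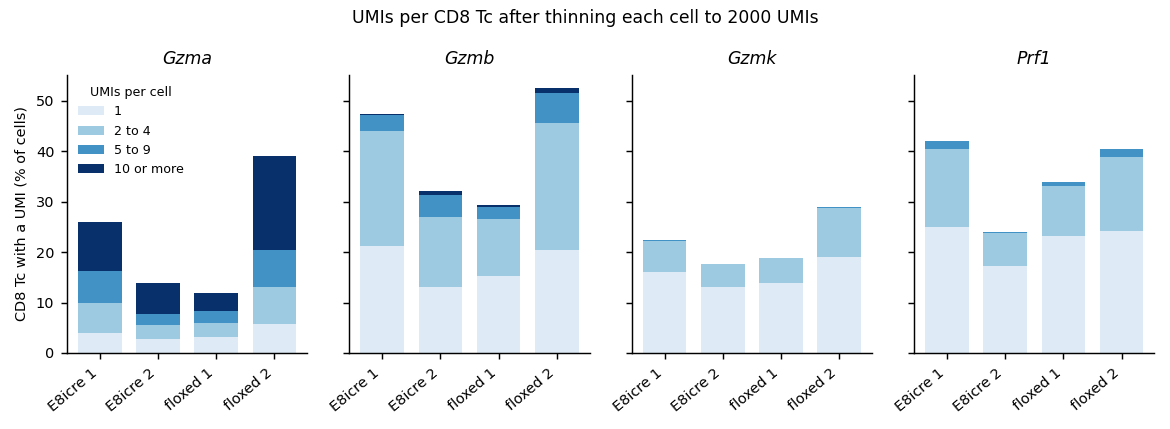
Share of CD8+ Tc (% of cells thinned to 2000 UMIs) that held 1, 2 to 4, 5 to 9 or 10 or more UMIs of Gzma, Gzmb, Gzmk and Prf1, stacked, with 1 bar per library. The darkest part, 10 or more UMIs, makes up 3.63% to 18.6% of CD8+ Tc for Gzma and under 1% for the other 3 genes.

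Detection of the granzymes overlapped within CD8+ Tc, as a description with no test. Gzma was found in 37.5%, 24.7%, 21.2% and 49.0% of thinned cells with Gzmb and in 15.6%, 8.79%, 8.16% and 28.1% of those without. Gzmk was found in 30.2% ± 6.30 of cells with Gzmb and 15.8% ± 2.33 of those without, and in 32.7% ± 6.40 of cells with Gzma and 18.3% ± 2.16 of those without. For Prf1 the shares were 45.5% ± 7.53 with Gzmb and 28.0% ± 6.33 without. All 12 such shares in CD8+ Tc were higher among cells with the other gene in 4 of 4 libraries. They read each pair of genes in both directions, and within a library the direction of one reading fixes that of the other. The 12 shares are therefore not separate results. Even so, no granzyme was detected in 38.4%, 54.8%, 54.7% and 29.96% of thinned CD8+ Tc, 1 in 30.9% ± 1.82, 2 in 19.2% ± 7.10 and 3 in 5.42% ± 4.80. At this depth a cell without a UMI is not a cell without the transcript.

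States were then cut by single genes that are no members, so that the members could be tested within each library. CD8+ Tc with at least 1 UMI of the gate gene were summed and compared with those without, by the same test with library as a block. The plot of fold changes shows the 9 within-library comparisons. A gate of 1 UMI favours deep cells, so the same gates were also set after thinning.

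**Figure D3:**
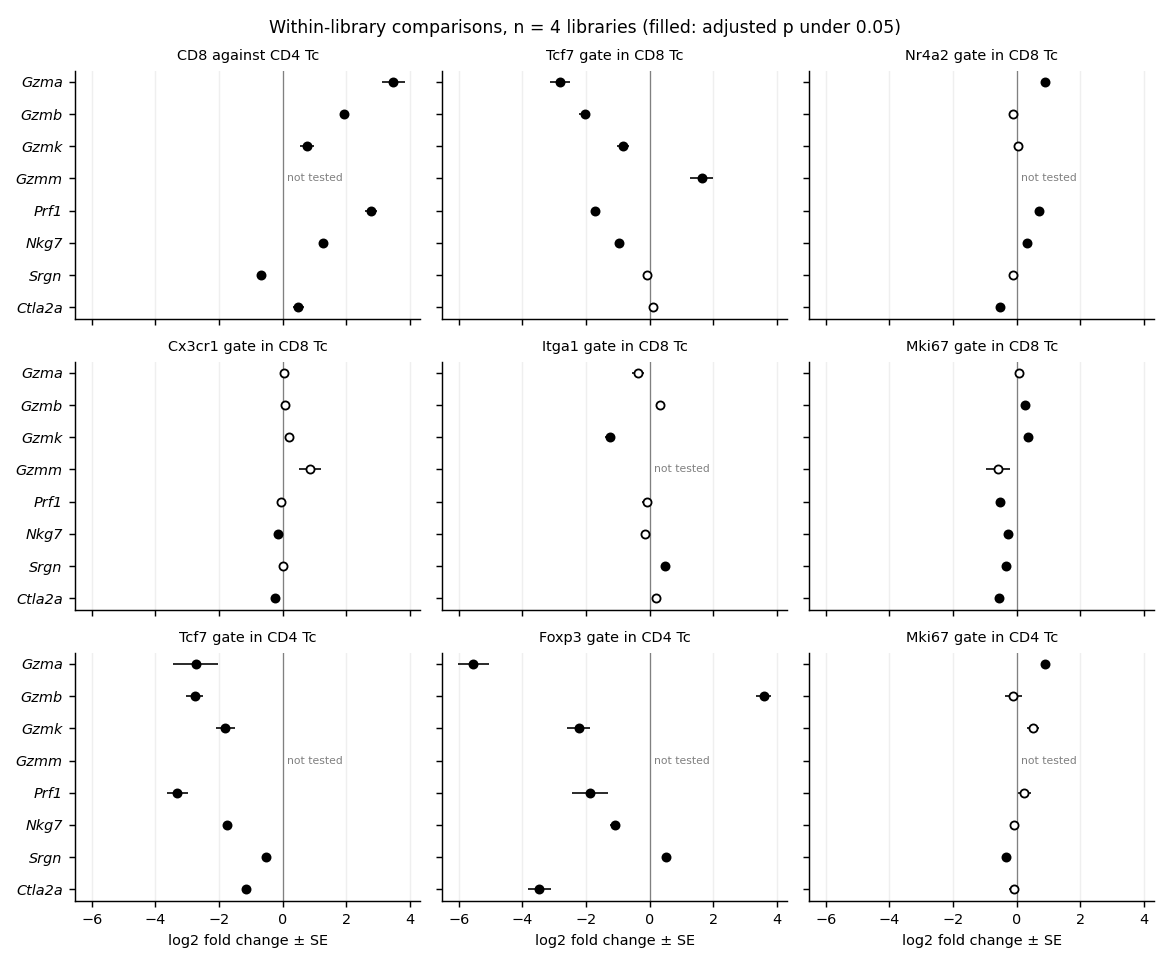
Log2 fold change ± SE of each gene in 9 within-library comparisons (4 libraries each), higher values meaning higher in CD8+ Tc (first panel) or in gate-positive cells; filled points passed an adjusted p under 0.05 by edgeR. Gzma, Gzmb, Prf1 and Nkg7 lie to the left in both Tcf7 panels, and Gzmb lies far to the right in the Foxp3 panel.

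Tcf7-positive CD8+ Tc, 199, 229, 75 and 102 cells, were lower in the lytic genes. Of 8 members, 5 fell and 1 rose, against 14.3% of all genes called. Gzma was at 219, 120, 233 and 114 CPM in Tcf7-positive and 1579, 1033, 474 and 3080 CPM in Tcf7-negative cells, with no overlap (−2.82 ± 0.32, adjusted p = 6.8e-06). With thinned cells the Gzma fold change was −4.28 (adjusted p = 1.15e-20). Gzmb was at 164, 122, 120 and 69.6 CPM against 562, 507, 347 and 736 CPM (−2.04 ± 0.17, adjusted p = 2.4e-07). Prf1 fell by 1.72 ± 0.13 (adjusted p = 4.3e-08), from 351, 193, 268 and 344 CPM to 81.2, 60.0, 113 and 84.5 CPM. Nkg7 fell by 0.96 ± 0.06 (adjusted p = 6.4e-09) and remained at 1836, 1778, 1854 and 2623 CPM in Tcf7-positive cells. The groups did not overlap for Gzmb, Prf1 or Nkg7.

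Gzmk differed less between Tcf7-positive (48.7, 86.4, 132 and 79.6 CPM) and Tcf7-negative CD8+ Tc (143, 148, 122 and 241 CPM). The groups overlapped, and floxed 1 went the other way. Its fold change was −0.85 ± 0.19 (adjusted p = 0.0040), −1.54 with thinned cells (adjusted p = 5.09e-07), and −0.65 without E8icre 1 (adjusted p = 0.10), and DESeq2 did not call it (adjusted p = 0.160). Gzmm was the member that rose, at 4.78, 18.7, 10.3 and 4.97 CPM against 1.57, 4.75, 2.98 and 4.91 CPM (1.64 ± 0.35, adjusted p = 0.0037). This rests on 47 UMIs in Tcf7-positive cells, of which 24 came from 3 cells of E8icre 2, and without E8icre 2 it was 1.28 (adjusted p = 0.164). Srgn (−0.07 ± 0.09, adjusted p = 0.68) and Ctla2a (0.09 ± 0.10, adjusted p = 0.63) did not pass. Of 24 listed granule genes 4 rose and 10 fell, with a median of −0.16: Fasl fell by 2.48 ± 0.15, Sytl2 by 1.73 ± 0.12 and Lyst, the lysosomal trafficking regulator, by 1.2 ± 0.11, while Lamp1 rose by 1.17 ± 0.12.

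Nr4a2, a nuclear receptor induced by T cell receptor signals and kept up in exhaustion, divided CD8+ Tc differently. Of 7 members tested 3 rose and 1 fell, against 14.3% of all genes. Gzma was at 1868, 1390, 462 and 3951 CPM in Nr4a2-positive and 956, 494, 422 and 2171 CPM in Nr4a2-negative cells (0.89 ± 0.12, adjusted p = 4.2e-05). It was higher in positive cells of 4 of 4 libraries, little so in floxed 1. Prf1 was at 366, 184, 337 and 490 CPM against 270, 145, 181 and 225 CPM (0.71 ± 0.10, adjusted p = 4.1e-05), and Nkg7 rose by 0.33 ± 0.03 (adjusted p = 2.2e-06). Gzmb, at 501, 369, 307 and 643 CPM against 526, 423, 317 and 700 CPM, did not pass (−0.10 ± 0.06, adjusted p = 0.27), nor did Gzmk (0.03 ± 0.08, adjusted p = 0.89) or Srgn (−0.12 ± 0.07, adjusted p = 0.27). Ctla2a fell by 0.52 ± 0.11 (adjusted p = 0.0027), from 267, 284, 311 and 311 CPM to 120, 204, 252 and 280 CPM, by 0.32 without E8icre 1 (adjusted p = 0.00291) and by 0.29 with thinned cells (adjusted p = 0.123). DESeq2 did not call it either (adjusted p = 0.170).

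Nr4a2-positive cells were deeper, with median UMIs of 3354 to 8838 per cell against 2811 to 6297, and their part in these differences was addressed only by thinning, after which Gzma, Prf1 and Nkg7 still passed. Gzmm was at 0.458, 2.63, 2.48 and 0 CPM in Nr4a2-positive and 3.47, 11.3, 5.15 and 7.77 CPM in negative cells, without overlap, on 12 UMIs in positive cells. It was below the filter on low counts over 4 libraries, and passed as lower without that filter (adjusted p = 3.03e-08) and without E8icre 1 (adjusted p = 0.00207), floxed 1 (adjusted p = 0.00466) or floxed 2 (adjusted p = 0.00361). Of 23 listed granule genes tested 9 rose and 3 fell. Hopx fell by 1.29 ± 0.09 and Ctsw by 0.57 ± 0.07, whereas Lyst rose by 0.58 ± 0.07 and Ctsc by 0.53 ± 0.07.

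Cx3cr1, a chemokine receptor of effector Tc, separated the members weakly. Of 8 tested 2 passed, both lower, against 10.7% of all genes: Nkg7 (−0.14 ± 0.04, adjusted p = 0.021) and Ctla2a (−0.24 ± 0.08, adjusted p = 0.049). Without E8icre 2 the adjusted p was 0.0959 for Nkg7 and 0.0991 for Ctla2a, and without floxed 1 it was 0.180 and 0.439, while without floxed 2 that of Ctla2a was 0.124. DESeq2 called neither (adjusted p = 0.128 and 0.279), and with its size factors in edgeR that of Ctla2a was 0.0557. Gzma (0.05), Gzmb (0.08), Prf1 (−0.04), Gzmk (0.21 ± 0.08, adjusted p = 0.11) and Gzmm (0.86 ± 0.34, adjusted p = 0.12) did not pass. With thinned cells Gzma passed (0.81, adjusted p = 2.82e-06) and Nkg7 and Ctla2a did not (−0.02 and 0.07), so the Cx3cr1 gate gave no result that held at both depths. The granule list of 23 held 3 genes that rose and 5 that fell, among them Hopx (0.65), Serpinb9, the granzyme B inhibitor (0.35), Cst7 (−0.35) and Lyst (−0.38).

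Itga1, the α1 integrin of resident Tc, separated Gzmk. Of 7 members tested 1 rose and 1 fell, against 4.58% of all genes. Gzmk was at 65.5, 48.5, 67.8 and 98.9 CPM in Itga1-positive and 136, 144, 129 and 237 CPM in Itga1-negative CD8+ Tc, without overlap (−1.26 ± 0.13, adjusted p = 1.0e-04). Srgn was at 991, 884, 959 and 1152 CPM against 596, 665, 742 and 821 CPM, also without overlap (0.48 ± 0.08, adjusted p = 0.0026), with an adjusted p of 0.0506 without floxed 2. Both genes thus moved, in opposite directions. Gzmb (0.34 ± 0.11, adjusted p = 0.093) and Gzma (−0.36 ± 0.19, adjusted p = 0.35) did not pass. Leaving out 1 library let Gzmb (0.46 without E8icre 1, adjusted p = 0.0447), Nkg7 (−0.27 without E8icre 2, adjusted p = 0.0172) or Gzma (−0.68 without floxed 1, adjusted p = 0.00183) pass. The 7 NK cell markers summed to 130 to 421 CPM in Itga1-positive cells and 42.6 to 69.2 CPM in negative cells. In positive cells 60.3% of this was Fcer1g, and Ncr1, Klra8 and Klra4 were at 0. Their part in the result was not tested. Of 23 listed granule genes 2 rose (Hopx, 1.04, and Ctsw, 0.91) and 2 fell (Sytl3, −0.67, and Vamp8, −0.55).

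Mki67, a gene of dividing cells, went with 6 calls among 8 members, where 42.4% of all genes were called. Gzmb (540, 517, 362 and 620 CPM in Mki67-positive and 491, 342, 283 and 720 CPM in negative CD8+ Tc; 0.26 ± 0.09, adjusted p = 0.021) and Gzmk (0.34 ± 0.11, adjusted p = 0.012) were higher. The Gzmb call was lost without E8icre 1 (0.27, adjusted p = 0.0656), E8icre 2 (0.12, adjusted p = 0.172) or floxed 1 (0.23, adjusted p = 0.0824), and that of Gzmk without E8icre 2 (0.14, adjusted p = 0.165). With thinned cells neither passed (Gzmb 0.27, adjusted p = 0.0504; Gzmk 0.28, adjusted p = 0.107), nor did they in DESeq2 (adjusted p = 0.267 and 0.276). Prf1 (−0.52 ± 0.07), Nkg7 (−0.28 ± 0.04), Srgn (−0.33 ± 0.05) and Ctla2a (−0.56 ± 0.07) were lower, while Gzma did not pass (0.07 ± 0.07, adjusted p = 0.46). Ctla2a was at 146, 213, 204 and 228 CPM against 232, 283, 339 and 349 CPM, lower in 4 of 4 libraries. Mki67-positive cells were deeper (median 4524 to 9951 UMIs against 2791 to 6459), and Prf1, Nkg7, Srgn and Ctla2a also passed with thinned cells. In the granule list 1 of 23 rose and 9 fell, with Hopx at −0.80, Ctsw at −0.56, Cst7 at −0.50 and Fasl at −0.49. This is close to the 42.4% of all genes called, so it is no result about the list.

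CD4+ Tc fell into 7 clusters. Gzmb was led by cluster 5, in which 6 of 6 markers of regulatory Tc were raised, Foxp3 first, but which stayed unnamed since hemoglobin genes stood among its top genes (113 cells). It held 916, 1081, 1926 and 826 CPM of Gzmb (1187 ± 504), against 300, 146, 125 and 341 CPM in the cytotoxic-like cluster 1 (269 cells; 5 of 7 markers, Eomes, Ccl5, Ccl4, Ccl3 and Runx3, but not Crtam or Tbx21). Of thinned cluster 5 cells 41.9%, 54.7%, 80.0% and 35.7% held Gzmb. In precursor-like CD4+ Tc it was at 0, 0, 6.45 and 0 CPM.

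The other lytic genes were led by the cytotoxic-like cluster. Gzmk was at 475, 223, 269 and 208 CPM there (294 ± 123), Prf1 at 205, 95.2, 54.6 and 568 CPM (231 ± 234) and Nkg7 at 4952, 4688, 4363 and 5367 CPM (4843 ± 425). In each library Nkg7 was above its level in all CD8+ Tc there, while it was at 398, 324, 413 and 671 CPM in precursor-like CD4+ Tc. Gzma in the cytotoxic-like cluster came from few cells, with 41.0, 868, 3.90 and 3852 CPM from 5, 11, 1 and 10 cells, so it marked no CD4+ Tc state over all libraries. Srgn was highest in the Foxp3-led cluster (2266, 1766, 2256 and 2849 CPM; 2284 ± 443). Ctla2a showed the opposite there, at 0, 37.1, 0 and 65.2 CPM, and was at 941, 371, 398 and 426 CPM in cytotoxic-like cells.

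Foxp3 was also used as the gate (33, 56, 6 and 17 positive cells). Since Foxp3 led cluster 5 (37, 53, 5 and 18 cells), this gate is not independent of that cluster. The cells shared by both were not counted. Of 7 members tested, 7 passed, 2 higher and 5 lower, against 8.14% of all genes. Gzmb was at 715, 803, 1822 and 699 CPM in Foxp3-positive and 108, 40.3, 50.03 and 120 CPM in Foxp3-negative CD4+ Tc, without overlap (3.58 ± 0.23, adjusted p = 1.5e-17). In each library Foxp3-positive Tc thus held more Gzmb than CD8+ Tc as a whole. Gzma was almost absent from them, with 2 UMIs, at a ratio to negative cells of 0.0239 (95% counting interval 0.00289 to 0.0865), and no fitted fold is given. This interval pools the libraries and takes UMIs as independent. Gzmk was at 13.5, 30.2, 20.7 and 0 CPM against 137, 88.5, 89.0 and 45.8 CPM (−2.24 ± 0.37), Ctla2a fell by 3.47 ± 0.36 and Nkg7 by 1.08 ± 0.16. Prf1 (−1.87 ± 0.56, adjusted p = 0.024) rests on 6 UMIs in positive cells and lost its call without E8icre 1 (adjusted p = 0.245), E8icre 2 (adjusted p = 0.149) or floxed 2 (adjusted p = 0.193), and in DESeq2 (adjusted p = 0.375).

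Srgn was at 1726, 1494, 2112 and 2098 CPM in Foxp3-positive and 1262, 964, 1165 and 1325 CPM in negative cells (0.51 ± 0.14, adjusted p = 0.0095), and its adjusted p was 0.149 without E8icre 2, 0.135 without the filter on low counts, 0.503 with 2 UMIs for CD8 or CD4 and 0.782 with thinned cells. Erythroid markers summed to 108, 7700, 186 and 31794 CPM in Foxp3-positive and 772, 1878, 213 and 2825 CPM in negative cells, higher in positive cells of E8icre 2 and floxed 2 and lower in the others. The part of these markers in the differences of the Foxp3 gate was not tested. Of 23 listed granule genes none rose and 6 fell, among them Fasl (−3.02), Sytl3 (−2.57), Serpinb6b (−2.23) and Lyst (−1.73). The median of the list was −0.06.

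Tcf7-positive CD4+ Tc were lower in all 7 members tested, against 5.83% of all genes. Gzmb was at 55.3, 14.1, 19.5 and 9.53 CPM against 191, 178, 162 and 215 CPM (−2.77 ± 0.27, adjusted p = 4.3e-05), and Prf1 at 5.92, 3.07, 8.85 and 3.18 CPM against 75.6, 33.1, 22.8 and 124 CPM (−3.31 ± 0.33, adjusted p = 5.8e-05). Nkg7 was at 692, 509, 733 and 534 CPM against 2158, 2132, 2074 and 2197 CPM (−1.75 ± 0.10). Gzmb, Prf1 and Nkg7 did not overlap between the groups, nor did Srgn and Ctla2a. Gzmk fell by 1.81 ± 0.30 (adjusted p = 0.0023), Ctla2a by 1.14 ± 0.14 and Srgn by 0.54 ± 0.10. Gzma was uneven, at 51.3, 4.29, 17.7 and 22.2 CPM against 58.8, 216, 3.25 and 808 CPM, with floxed 1 the other way (−2.73 ± 0.70, adjusted p = 0.036), and was −1.78 without E8icre 2 (adjusted p = 0.148), −1.96 without floxed 2 (adjusted p = 0.355) and −4.46 without E8icre 1 (adjusted p = 1.99e-05). It did not pass with a stricter cell filter (adjusted p = 0.0878) or 2 UMIs for CD8 or CD4 (adjusted p = 0.0545), and DESeq2 called neither Gzma (adjusted p = 0.939) nor Gzmk (adjusted p = 0.120). In the granule list 1 of 23 rose and 8 fell, with Fasl at −1.88, Sytl2 at −1.16, Lyst at −0.71 and Lamp1 at 1.02. Ctla2b fell by 1.56 ± 0.29 (adjusted p = 0.0043) beside Ctla2a. The direction of the Tcf7 gate was thus the same in both classes for Gzmb, Prf1 and Nkg7. Whether the size differed between the classes was not tested.

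In the Mki67 gate of CD4+ Tc, where 23.9% of all genes were called, 2 of 7 members passed. Srgn fell by 0.33 ± 0.08 (adjusted p = 0.0027), and Gzma rose by 0.89 ± 0.14 (adjusted p = 4.4e-05), but lay lower in Mki67-positive cells of floxed 1 (2.69 against 10.8 CPM) and was 0.22 with thinned cells (adjusted p = 0.754) and not called by DESeq2 (adjusted p = 0.507). Without single libraries Gzmk (0.76 without E8icre 1, adjusted p = 0.0209; 0.60 without floxed 2, adjusted p = 0.00436) or Gzmb (−0.63 without floxed 1, adjusted p = 0.0171) passed. Of 23 listed granule genes 2 rose (Sytl3, 0.41, and Calr, 0.29) and 2 fell (Cst7, −0.58, and Ctsw, −0.30). This is not above the 23.9% of all genes called, so it is no result about the list.

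In thinned CD4+ Tc, Prf1 and Gzmb were detected more often in cells with Gzmk (80, 51, 23 and 13 cells) than in those without. Prf1 was found in 24.0% ± 10.8 of cells with Gzmk and 3.61% ± 1.81 of those without, and Gzmb in 32.1% ± 17.1 and 9.42% ± 0.557, each higher with Gzmk in 4 of 4 libraries. Shares that involve Gzma were higher with the other gene in 3 of 4 libraries. Gzma was found in 1.32% of E8icre 1 cells with Gzmb and 2.78% of those without. In floxed 1 it was found in 0% of cells with Prf1 and 1.33% of those without. No granzyme was found in 79.8% ± 3.53 of CD4+ Tc.

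The genes whose levels followed each granzyme most closely over 17 Tc clusters of both classes were ranked by the mean over libraries of Pearson's r of log2(CPM + 10), among 5894 genes, as a description. Clusters of a library share its depth and free RNA. Gzma was nearest to Sept11 (mean r 0.848, 0.778 to 0.915 over libraries), Prf1 (0.777) and Rpa2 (0.753). Gzmb was nearest to the chemokine gene Ccl5 (0.784), followed by Ikzf3 (0.727). The T-box factor gene Eomes stood near Gzmk (0.788), after Ccl5 (0.852) and before Nkg7 (0.773), and Cx3cr1 stood first for Gzmm (0.799). Gzmm averaged 6.41 CPM over the clusters, under the 10 CPM added before the logarithm and the 20 CPM asked of the ranked genes. Its ranking thus rests on few UMIs. For Prf1 the nearest were Ccl5 (0.873), Nkg7 (0.860) and Lrrk1 (0.805). The neighbours Gzma and Gzmk on chromosome 13 were related by a mean r of 0.646 (0.449 to 0.839).

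Free RNA in droplets places UMIs of T cell genes in cells that do not express them. In each class of cells that were not T cells, the level of a member was therefore given as a percentage of its level in all T cells of the library, beside the same percentage for 6 T cell genes (Cd3d, Cd3e, Cd3g, Trac, Trbc1 and Trbc2). Gzma and Prf1 exceeded all 6 in no class in 4 of 4 libraries, and neither did Gzmk. In all, 18 of 80 pairs of class and member did so, 10 of them Srgn, which exceeded the T cell genes in each of the 10 classes. Leaving out 1 library gave 18 to 20 such pairs and thinned cells gave 13.

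**Figure D4:**
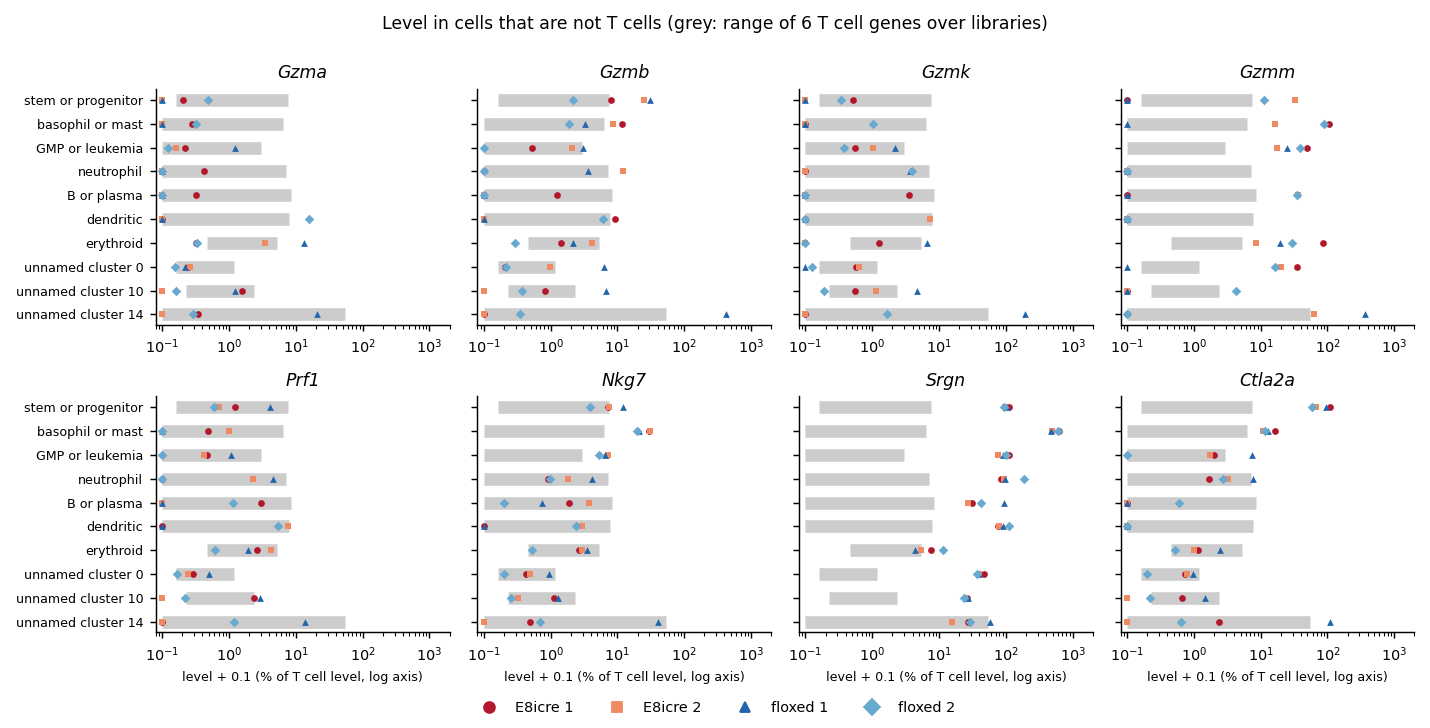
Level of each gene in 10 classes of cells that were not T cells, as a percentage of its level in the T cells of the same library (plus 0.1, log axis), with 1 point per library; grey bars span 6 T cell genes over the 4 libraries. Points of Srgn lie right of the grey bars in nearly all classes, and those of Gzma, Gzmk and Prf1 mostly within or left of them.

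Basophil- or mast-like cells (183) held 4973, 4040, 4385 and 5919 CPM of Srgn, 474% to 614% of the T cell level, and 898, 759, 578 and 754 CPM of Nkg7, 19.5% to 30.5% of it. The T cell genes were at 0 to 6.23% in these cells. Both are genes that granulated myeloid cells are known to share with lymphocytes. Nkg7 also exceeded the T cell genes in progenitor or leukemia cells of the granulocyte-monocyte class (212, 176, 182 and 203 CPM) and in stem or progenitor cells (218, 184, 334 and 144 CPM). In the latter, 313 cells, Ctla2a was at 234, 140, 235 and 152 CPM, 58.0% to 110% of its T cell level, and Gzmb at 31.9, 72.4, 76.4 and 11.9 CPM, 2.09% to 30.6%, from 257 UMIs. In the stem or progenitor cells with no UMI of Cd3d, Cd3e, Cd3g, Cd8a, Cd8b1 and Cd4 Gzmb was at 36.8, 88.0, 52.3 and 11.8 CPM, close to the values of all such cells in E8icre 1, E8icre 2 and floxed 2. Over all stem or progenitor cells the 6 T cell genes ran from 0.0599% to 7.43%, and within each library each of them was below Gzmb. Gzmm exceeded them in erythroid and granulocyte-monocyte cells on 9 and 12 UMIs, and not with thinned cells. In the 10 cells of unnamed cluster 14 of floxed 1 Gzmb was at 1043 CPM and Nkg7 at 1140 CPM. The T cell genes reached 53.7% there, and its cells without UMIs of the CD3, CD8 and Cd4 genes held 0 Gzmb UMIs.

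The study compared the donor genotypes, with 2 libraries each. An exact permutation test of 2 against 2 cannot go below p = 0.3333, so edgeR across all genes was the test. None of the 8 members passed in CD8+ Tc, where 0.0277% of all genes were called, and 0 were under an unadjusted p of 0.05, with 0 calls by DESeq2 too. The log2 fold changes of Havcr2fl/fl;E8icre/+ over Havcr2fl/fl were −0.61 ± 0.63 for Gzma, −0.15 ± 0.32 for Gzmb, −0.45 ± 0.26 for Gzmk, 0.16 ± 0.62 for Gzmm, −0.30 ± 0.29 for Prf1, −0.26 ± 0.27 for Nkg7, −0.32 ± 0.22 for Srgn and −0.41 ± 0.22 for Ctla2a. Floxed 1 and floxed 2 lay at the ends of the range for Gzma and Gzmb, with both E8icre libraries between them. Srgn and Ctla2a were the members whose genotypes did not overlap in CD8+ Tc. With 2 libraries against 2, random order alone separates the genotypes of a gene at a probability of 0.3333. The share of all genes without overlap was not counted, so this is no result about Srgn and Ctla2a.

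**Figure D5:**
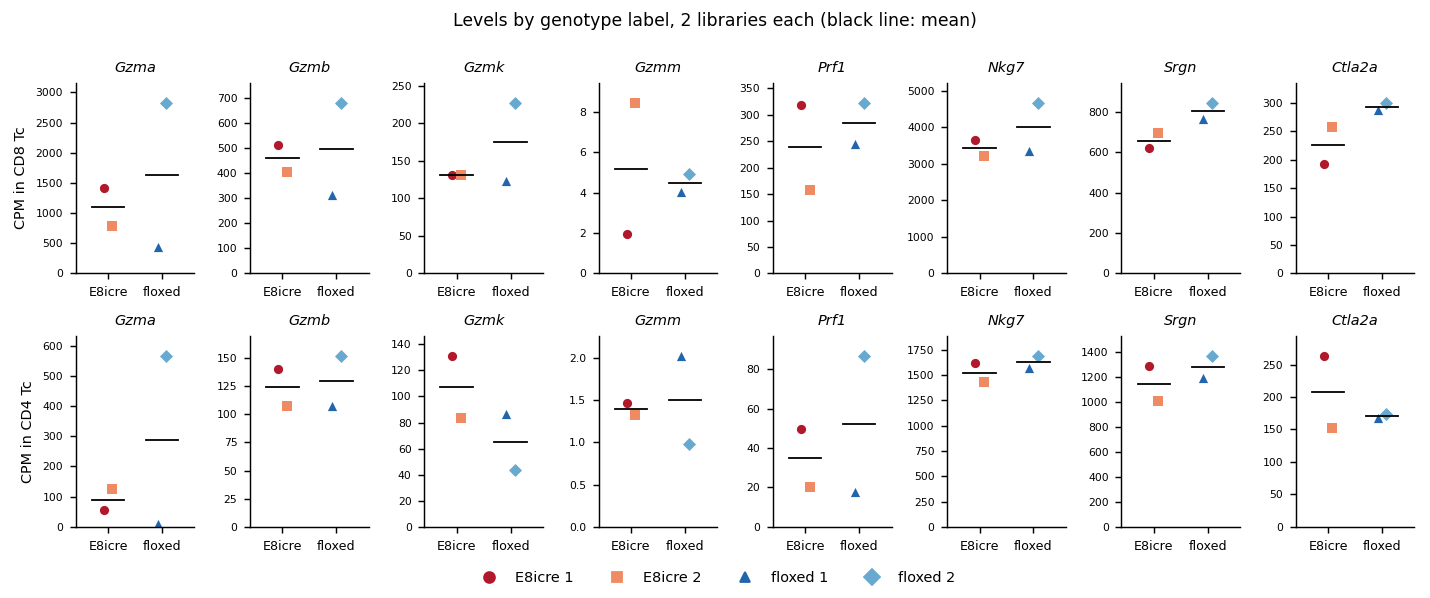
CPM of each gene in CD8+ Tc (upper row) and CD4+ Tc (lower row) by genotype label, with 1 point per library and a black line at the mean of 2 libraries; each axis starts at 0. The floxed libraries lie further from each other than the genotype means for Gzma (439 and 2824 CPM in CD8+ Tc).

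In CD4+ Tc none of 7 passed (0.0% of all genes called; 0 at an unadjusted p under 0.05; 0 by DESeq2). Gzma there rested on single libraries: it was −2.44 without E8icre 2, −2.68 without floxed 1 and 3.35 without floxed 2. Each of these fits, like the others between genotypes that leave out a library, has 1 library in one arm. That library is assumed to vary like the pair of the other genotype, so that p-values rest on the spread of that pair, moderated across genes. Effect sizes only are therefore given for these fits. The direction of the Gzma difference thus turned with floxed 2. Neither did any of 8 members pass in short-term effector-like cells (clusters 4 and 7; 0.0% of all genes; 0 at an unadjusted p under 0.05; 0 by DESeq2). The difference of the genotype effect between CD8+ and CD4+ Tc passed for none of 8 (0.0184% of all genes). At an unadjusted p under 0.05 it held 1 member, Gzmk (−0.94 ± 0.37), and 479 of all 10861 genes. Without E8icre 2 the difference was −1.25 for Gzmk and −1.19 for Ctla2a.

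In cluster 1, the cluster with most exhaustion markers, none of 7 passed (0.0% of all genes; DESeq2 0). Under an unadjusted p of 0.05 were 3 of them, namely Ctla2a (−1.13 ± 0.28), Srgn (−0.57) and Gzmk (−0.74), and 271 of all 7479 genes tested. Without floxed 1, so with 1 floxed library, the fold change was −1.16 for Gzma, −0.90 for Prf1, −1.16 for Gzmk and −1.30 for Ctla2a. Likewise without floxed 2, it was 1.40 for Gzma and −0.95 for Ctla2a. The sign of Gzma again turned with floxed 2, and that of Ctla2a did not.

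Among precursor exhausted-like CD8+ Tc 1 of 6 members tested passed, where 0.0732% of all genes were called. Under an unadjusted p of 0.05 were 4 members and 448 of all 6828 genes tested. Gzmb had 2, 3, 18 and 35 UMIs, in 2 of 163, 2 of 194, 7 of 76 and 10 of 124 cells. These shares were 1.23% (Wilson 95% interval 0.337% to 4.36%), 1.03% (0.283% to 3.68%), 9.21% (4.53% to 17.8%) and 8.06% (4.44% to 14.2%). The intervals cover counting error within a library only and hold no spread between mice. Those of the E8icre and floxed libraries were narrowly apart, at 4.36% in E8icre 1 and 4.44% in floxed 2. Over the genotypes, 53 floxed UMIs stood against 5, a ratio of CPM of 23.9 (95% counting interval 9.62 to 76.6). In edgeR, on sums per library, the adjusted p was 0.00239. The counting interval pools the mice of a genotype and takes UMIs as independent, so it is too narrow for a difference between genotypes. Of the floxed UMIs, 21 of the 35 in floxed 2 and 8 of the 18 in floxed 1 came from 1 cell each, and without the richest cell of each library the adjusted p was 0.0312. The difference is thus one of few cells. In the E8icre libraries the level was under that of their cells that were not T cells. In floxed 2 it was over it (83.5 against 1.73 CPM), and in floxed 1 it was 35.8 against 30.5 CPM, with 8 of its 18 UMIs from 1 cell. The cells that were not T cells were deeper, and these levels were not matched for depth. They also included the stem or progenitor cells, in which Gzmb exceeded the T cell genes, so their level need not be background. Whether Gzmb in precursor exhausted-like cells was above background was not tested.

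The other 4 genes called there were Ccl5 (649, 651, 2702 and 1244 UMIs) and Ccl4 (11, 27, 29 and 99 UMIs), chemokine genes of effector Tc that were lower with the E8icre label, Eps8l1 (0, 0, 25 and 8 UMIs) and Atp2b2, which was higher with it (30, 99, 2 and 4 UMIs). They are named after their values were seen. Havcr2 had 1, 1, 5 and 7 UMIs in these cells. With 1 floxed library left, the fold change was −0.81 for Nkg7 without floxed 1 and −1.67 for Gzmk without floxed 2. The number of mice, 2 per genotype, limits what these comparisons can show.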

How the data were processed

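Single-cell RNA was measured in spleen Tc of 4 mice. The deposited files hold UMI counts as whole numbers, per cell and gene, which the authors made with Cell Ranger 6.1.2 on mm10 (submitters' processing notes), without normalization; the counting annotation is not given in the sources used here. The antibody tag was kept out of totals. The cell filter required 500 genes and 1000 UMIs and allowed 10% mitochondrial UMIs, and the highest Scrublet scores (scanpy 1.11.5) were removed at 0.8% per 1000 barcodes, since Scrublet's own calls were 2, 5, 9 and 109. Cells were clustered with Seurat 5.3.0 (CCA, 2000 variable genes, 30 dimensions, 20 neighbors), without granule genes, at the lowest resolution giving at least 10 CD8+ and 6 CD4+ clusters. CPM are UMIs of a gene per 1e6 gene UMIs summed per library. Sums were tested with edgeR 4.0.16 (TMM, filterByExpr, quasi-likelihood test, Benjamini-Hochberg over all genes, threshold 0.05, two-sided) in R 4.3.3, with library as a block in comparisons within libraries. The steps were tested on simulated data. Shares have Wilson 95% intervals.

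The 8 members, gates, gene lists and markers were chosen with earlier results of these data known. Listed genes are named if they had the 4 smallest p-values past the threshold, and the 3 most alike genes are named per lytic gene. Alternatives were DESeq2 1.42.0, its size factors, no filter on low counts, each library left out, stricter cells, doublets kept, other clusterings, 2 UMIs for CD8 or CD4, thinned cells and blocks. With 2 UMIs for CD8 or CD4, the gates of states stayed at 1 UMI.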

Additional observations from a re-analysis of the deposited data

How the results depend on the processing

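Of 560 values of called fold changes under an alternative, 490 kept direction and call, 69 kept the direction and lost the call, and 1 reversed (Ctla2a in the Cx3cr1 gate with thinned cells, 0.067). Of 756 values of fold changes that were not called, 726 stayed without a call and 28 passed in the same direction. The 726 include changes of sign between fits without a call, which were not counted apart. Counted as reversed were 2, Gzma between genotypes without floxed 2, in CD4+ Tc (3.35) and in cluster 1 (1.40). For Gzma, leaving out each library in turn gave −2.68 to 3.35 in CD4+ Tc and −1.16 to 1.40 in cluster 1. Without library as a block, fewer members were called: 4 in place of 7 for CD8+ against CD4+ Tc, 0 of 4 in the Nr4a2, 0 of 2 in the Cx3cr1, 1 of 2 in the Itga1 and 1 of 6 in the Mki67 gate of CD8+ Tc, and 4 of 7 in the Tcf7, 4 of 7 in the Foxp3 and 0 of 2 in the Mki67 gate of CD4+ Tc. Calls among all genes fell too, to 1077 in place of 2552 for CD8+ against CD4+ Tc. In the same order, those of the CD8+ Tc gates fell from 1375, 981, 431 and 4074 to 270, 188, 137 and 1899. Those of the CD4+ Tc gates fell from 463, 564 and 1955 to 182, 354 and 858. The Cx3cr1 gate called 1 with DESeq2's size factors, 0 with DESeq2 and 1 with thinned cells, the Foxp3 gate 4 with thinned cells and 4 with 2 UMIs for CD8 or CD4, and the Mki67 gate of CD4+ Tc 1 with DESeq2 and 1 with thinned cells. Of all genes, these Cx3cr1 fits called 972 of 9205, 471 of 9205 and 247 of 5995, in this order. The Foxp3 fits called 222 of 4222 and 254 of 5319, and the Mki67 fits 878 of 8187 and 242 of 4494. Without the filter on low counts, 4 members were called in the Itga1 gate, 1 between genotypes in CD4+ Tc, 1 in cluster 1 and 2 for the genotype effect in CD8+ against CD4+ Tc. Of all genes, these fits called 864 of 17135, 47 of 15862, 35 of 14051 and 55 of 17893, in this order. With 1 library left out, 1682 to 2214 of all genes were called for CD8+ against CD4+ Tc. In the CD8+ Tc gates it was 750 to 1563 (Tcf7), 958 to 1203 (Nr4a2), 667 to 916 (Cx3cr1), 124 to 687 (Itga1) and 3108 to 3983 (Mki67). In the CD4+ Tc gates it was 298 to 475 (Tcf7), 299 to 526 (Foxp3) and 1147 to 2032 (Mki67). Among the members, leaving out 1 library gave 5 to 8 calls for CD8+ against CD4+ Tc, 5 to 6 for the Tcf7, 4 to 5 for the Nr4a2, 0 to 2 for the Cx3cr1, 1 to 3 for the Itga1 and 4 to 6 for the Mki67 gate of CD8+ Tc, 6 to 7 for the Tcf7, 4 to 7 for the Foxp3 and 2 to 3 for the Mki67 gate of CD4+ Tc. Between genotypes, leaving out a library leaves 1 library in an arm and the spread of the other pair, so counts of calls are not given for these fits. The cause of these changes was not tested.

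The cluster with the highest mean stayed the same for all 8 genes of CD8+ Tc with the granule genes used for clustering, a higher resolution or doublets kept, and for 4 without integration, where Gzma, Gzmm, Nkg7 and Srgn moved (Gzma 1322, Gzmb 1565 and Srgn 820 CPM in the matched clusters). Without integration the short-term effector-like cluster held 562 cells, against 87 in cluster 7 and 418 in cluster 4. Another cluster of that clustering, of 588 cells, held 566 from floxed 2. Leaving out 1 library kept the leading cluster for 6 to 8 genes in CD8+ Tc and 7 to 8 in CD4+ Tc. The replicate numbers share only a number: deviations of libraries with the same number were correlated by −0.17 over 5916 genes in CD8+ Tc and 0.022 over 6017 genes in CD4+ Tc. With the replicate block 0 members were called between genotypes in CD8+ Tc and 0 in CD4+ Tc, 1 in precursor exhausted-like cells, 1 in cluster 1 and 0 in short-term effector-like cells. Of all genes, these fits called 0, 5, 6, 15 and 0, in this order. The crossed pairing, added after the data were seen, called 0 members and 68 genes in CD8+ Tc, against 3 genes without a block. Counts were low for Gzmm, with 16 to 58 UMIs per library in CD8+ Tc, and in precursor exhausted-like cells for Gzma, with 2 to 7, and Gzmb, with 2 to 35, which limits the precision of these values.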

Other observations

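T cells with UMIs of both Cd4 and a CD8 gene (195 cells) held 456, 883, 31.1 and 2633 CPM of Gzma, 303, 233, 197 and 425 CPM of Gzmb and 2123, 2333, 2593 and 2237 CPM of Nkg7. In each library their Gzmb lay between that of CD4+ and that of CD8+ Tc. T cells with neither (532 cells) held 43.7, 80.0, 15.6 and 287 CPM of Gzma, 183, 194, 141 and 422 CPM of Gzmb and 1454, 860, 1752 and 1404 CPM of Nkg7. Their Gzmk was at 169, 48.0, 83.4 and 40.2 CPM and their Prf1 at 53.6, 19.6, 52.1 and 42 CPM, and no Gzmm UMI was found in them. These cells entered no comparison, since a missing UMI does not tell a class at this depth.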
